A study of Canis lupus familiaris with 186 samples.

Results

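The comparison concerned dogs with primary osteosarcoma (OS) whose tumors had been examined by immunohistochemistry (IHC) for CD20, and asked which genes differed in RNA between tumors with more and with fewer labelled cells. Of the 186 dogs with RNA sequencing used here, 19 had a CD20 category in the study's supplementary data. The 8 tumors of category 2 or 3 are called CD20-labelled and the 11 tumors of category 1, the lowest, are called CD20-poor. By the study's methods, category 1 stood for fewer than 1 labelled cell per high-power field, category 2 for 1 to 5 and category 3 for more than 5, so that CD20-poor does not mean without labelled cells. All 19 were treatment-naive appendicular tumors of client-owned pet dogs from the trials COTC021 and COTC022, each represented by 1 biopsy. The IHC used formalin-fixed, decalcified tissue embedded in paraffin, whereas the RNA came from frozen tissue of the same tumor, so the 2 assays did not read the same cells. Tumors for IHC had been drawn from the GS-1 clusters, which the study built from the expression of signature genes and named favorable prognosis (FP) and poor prognosis (PP). The clusters were uneven between the sides, with 6 FP and 2 PP dogs among the labelled and 3 FP and 8 PP dogs among the poor. The study itself reported significantly more CD20 labelling in the FP than in the PP tumors. The trials were uneven as well, since 6 labelled dogs were of COTC021 and 2 of COTC022, against 4 and 7 among the poor. Category 3 was given to dogs 311 and 1405, both FP. Category 2 was given to the FP dogs 522, 625, 1106 and 1909 and to the PP dogs 704 and 1411. The poor side held the FP dogs 207, 523 and 2321 and the PP dogs 102, 608, 712, 719, 1009, 1012, 1022 and 1410.

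CD20 is a membrane protein encoded by MS4A1 and carried by B cells from the late precursor stage until they turn into plasma cells, which lose it and make antibody. B cells recognise antigen through a surface immunoglobulin that signals through CD79A and CD79B, and take help from T cells through CD40. In chronically inflamed or tumor tissue they may gather with T cells and dendritic cells in lymphoid aggregates, where the chemokine CXCL13 attracts them.

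Depth was alike on both sides. Total counts ranged from 7782538 to 19767976 (median 9643873) in the labelled and from 7038011 to 18902829 (median 9556523) in the poor. A count of 0 in a library allowed up to 3 counts, which was 0.152 to 0.426 CPM (counts scaled to the library total) over the 19 libraries and covers counting error only. In a bulk biopsy, fewer cells of a type and less RNA per cell cannot be told apart.

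MS4A1 (chromosome 21, 51664248 to 51675690, GSD_1.0) was far above the other tumors in 2 of the 8 labelled dogs and low or undetected in the other 6. Dog 625 had 11.4 CPM, rank 1 of all 186 dogs, and dog 311 had 7.85 CPM, rank 4. The other labelled FP dogs had 0.453 CPM (dog 522), 0.301 CPM (dog 1405), 0.257 CPM (dog 1909) and 0 CPM (dog 1106), and the labelled PP dogs 0.0506 CPM (dog 704) and 0 CPM (dog 1411). Category and transcript did not follow each other dog by dog. Dog 1405, of category 3, had 3 counts of MS4A1, and dog 625, of category 2, had 93. Among the poor, dog 523 had 0.97 CPM from 10 counts, dog 207 had 0.284 CPM and dog 2321 had 0.128 CPM, and the 8 PP dogs lay between 0 and 0.161 CPM, with no count in 6 of them. The sides overlapped, since dog 523 was above 6 of the 8 labelled dogs. Mean log2(CPM + 1) was 1.01 ± 1.49 (SD, n = 8) in the labelled and 0.17 ± 0.29 (SD, n = 11) in the poor, a difference of 0.84. An exact two-sided permutation test over the 75582 arrangements gave p = 0.118 (adjusted over both MS4A1 tests, 0.236), where the smallest p possible was 2.65e-05. Within FP the difference was 0.83 (1.34 ± 1.61, n = 6, against 0.50 ± 0.42, n = 3), with an exact permutation p = 0.619 and a smallest possible p of 0.0238. Without dogs 311 and 625 the difference was 0.05 in all dogs (exact p = 0.718) and -0.19 within FP (exact p = 0.571), and without dog 523 it was 0.92 in all dogs (exact permutation p = 0.0298).

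**Figure D1:**
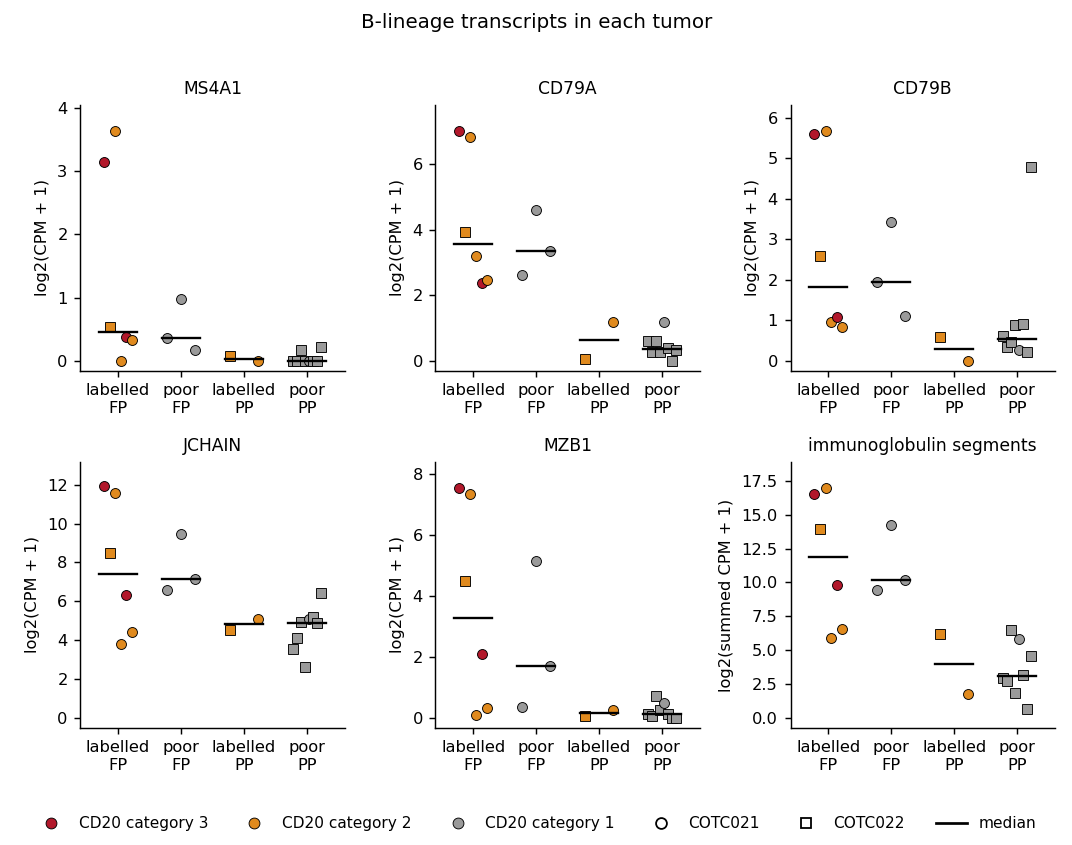
Levels of MS4A1, CD79A, CD79B, JCHAIN, MZB1 and the summed immunoglobulin segments by cluster and CD20 side, as log2(CPM + 1) on the vertical axis. Each point is 1 dog (red for category 3, orange for 2, grey for 1, circles for COTC021, squares for COTC022) and each bar a median, and dogs 311 and 625 stand above all other points of every panel, MS4A1 included with 7.85 and 11.4 CPM.

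Dogs 311 and 625 also had the highest CD79A and CD79B, while PAX5 and CXCL13 were high in some poor dogs too. CD79A (chromosome 1, 113151211 to 113154758), a signalling chain of the B cell receptor, was at 128.5 CPM in dog 311 and 114.3 CPM in dog 625. It was at 14.3, 8.16, 4.50 and 4.21 CPM in the other labelled FP dogs (522, 1106, 1909 and 1405) and at 1.29 and 0.0506 CPM in the labelled PP dogs. The FP dogs of the poor side had 5.12 (dog 207), 23.5 (dog 523) and 9.18 CPM (dog 2321), and the 8 PP dogs at most 1.26 CPM. Apart from dogs 311 and 625, the ranges of labelled and poor FP dogs thus overlapped in CD79A, with dog 523 the highest, and all FP dogs were above all PP dogs. CD79B, the partner of CD79A, was at 47.9 and 50.0 CPM in dogs 311 and 625 and at most 4.98 CPM in the other labelled dogs. A poor PP dog, 1410, had 26.8 CPM of CD79B with 0.269 CPM of CD79A. PAX5, the transcription factor that holds B cell identity, was at 8.19 and 25.5 CPM in dogs 311 and 625, but also at 8.78 CPM in the poor PP dog 608. CXCL13 was at 147.7 CPM in dog 625, 13.2 CPM in dog 311 and 24.2 CPM in the poor dog 523.

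Plasma cell genes were again highest in dogs 311 and 625. JCHAIN (chromosome 13, 61022208 to 61030422), the joining chain of polymeric antibody, was at 3924 CPM in dog 311 and 3032 CPM in dog 625, ranks 1 and 2 of 186. The other labelled dogs ranged from 12.8 CPM (dog 1106) to 357.4 CPM (dog 522), and the poor from 5.21 to 700.5 CPM (dog 523), with a median of 57.0 CPM in the labelled and 33.5 CPM in the poor. The labelled dogs 1106 and 1909 were thus below the poor median, and their JCHAIN ranked 167 and 143 of 186. MZB1, a chaperone of antibody assembly, was at 184.5 and 162.3 CPM in dogs 311 and 625, 34.7 CPM in dog 523, 21.4 CPM in dog 522 and at most 3.31 CPM in the other 15. TNFRSF17, the survival receptor of plasma cells, had no count in any of the 8 poor PP dogs, nor in dogs 1106, 1411 and 207. POU2AF1, a B cell coactivator, was at 135.2, 193.4 and 36.3 CPM in dogs 311, 625 and 523. IRF4, the factor whose protein MUM1 the study also labelled, was at 26.3, 31.6 and 7.66 CPM in these 3 dogs and at most 2.69 CPM elsewhere.

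The immunoglobulin loci gave the widest range. RefSeq lists 73 variable or constant segments of the heavy chain locus on chromosome 8 (73258712 to 76341721), 44 of the lambda locus on chromosome 26 (25441236 to 27721275) and 5 of the kappa locus on chromosome 17 (37657263 to 37992601). Segments share sequence, so that reads were divided between them and only their sum is given, and this sum was added after the values of the B lineage genes had been seen. It made up 12.9% of the library of dog 625 and 9.44% of that of dog 311, ranks 1 and 2 of 186. The poor dog 523 followed with 19220 CPM, rank 5, ahead of the labelled dog 522 with 15480 CPM, rank 8. The category 3 dog 1405 had 900.5 CPM, below the poor dog 2321 with 1188 CPM. The labelled dogs 1106, 1909, 704 and 1411 had 59.7, 94.5, 73.8 and 2.36 CPM, within the range of the 8 poor PP dogs, 0.575 to 89.4 CPM, except for dog 1909.

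**Figure D2:**
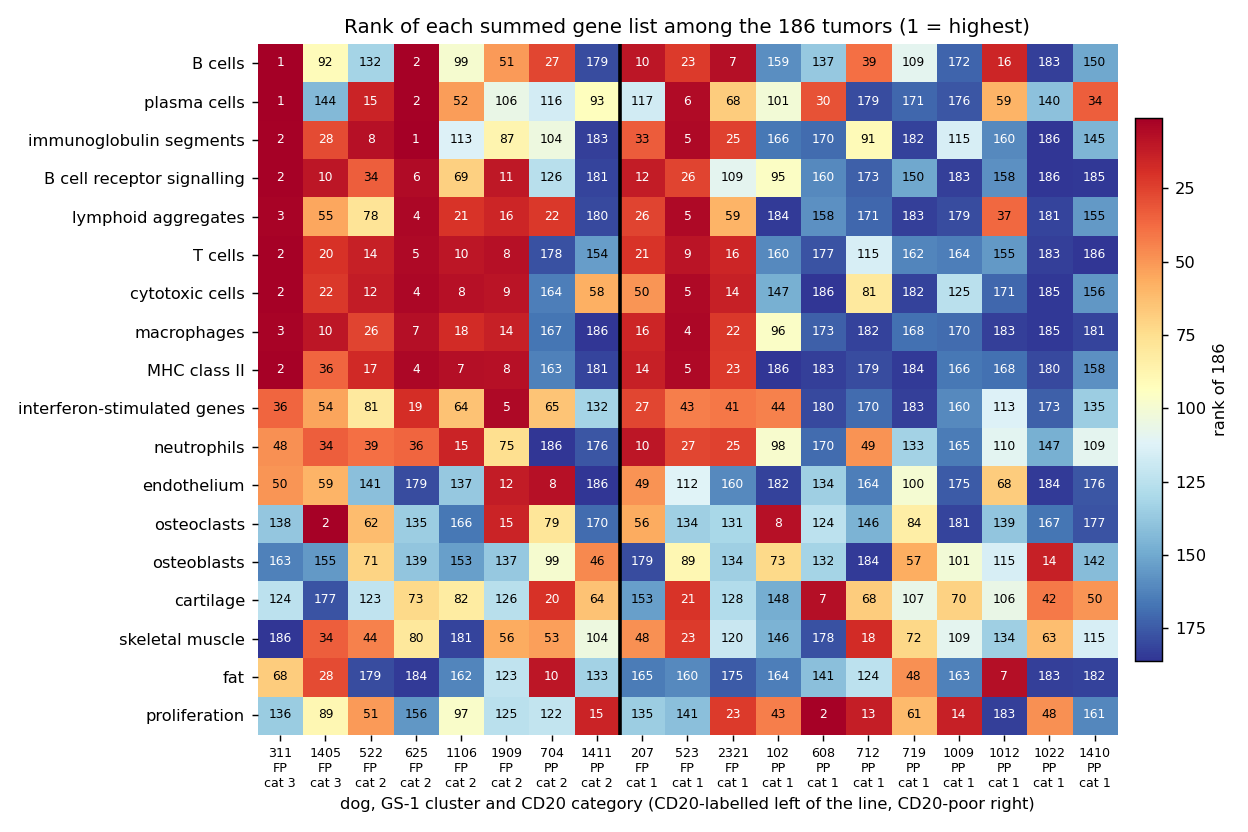
Rank of each of the 19 dogs (columns, by side and cluster) among all 186 for the summed CPM of 18 gene lists (rows), rank 1 being the highest. Dogs 311 and 625 hold ranks 1 and 2 on B cells and plasma cells, whereas the labelled PP dogs 704 and 1411 rank 178 and 154 on T cells and 167 and 186 on macrophages. The B cell sum includes EBF1, which stromal and fat cells also express, and the poor PP dog 1012 ranks 16 on it but 160 on immunoglobulin segments.

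Across all genes, none of the 12772 tested with limma-voom passed an adjusted p of 0.05 between labelled and poor tumors (0.0% of those tested), and the smallest adjusted p was 0.358. At an unadjusted p under 0.05 there were 1444 genes, or 11.3%, of which 926 (7.25%) were higher and 518 (4.06%) lower in the labelled. edgeR's quasi-likelihood test also called 0 genes (1729 at an unadjusted p under 0.05), whereas DESeq2 called 55, of which 37 were higher and 18 lower (2051 at an unadjusted p under 0.05). Among the DESeq2 calls was JCHAIN at 4.36 on the log2 scale (adjusted p = 0.0108), for which limma-voom gave 1.72 ± 1.12 (SE, adjusted p = 0.559). Without dogs 311 and 625 the voom value of JCHAIN was 0.05. No gene had all 8 labelled dogs above all 11 poor dogs (0.0%), and 1 gene, CLBA1, had all poor dogs above all labelled dogs (0.00783%). CLBA1 (chromosome 8, 72855875 to 72863973), which binds clathrin, was at 0.475 to 1.82 CPM (median 0.953) in the labelled and 1.85 to 8.46 CPM (median 2.81) in the poor, a log2 fold change of -1.76 ± 0.48 (limma-voom SE, adjusted p = 0.358; DESeq2, -1.93, adjusted p = 0.0136).

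The gene lists of immune cells lay to the labelled side in this comparison, with 0 of their genes called by limma-voom. Over all genes tested, 48.5% had a positive log2 fold change and the median was -0.02. To be tested, a gene had to reach the minimum count in 12 libraries, more than either side holds, and within FP in 7. Of the T cell list, 10 of 21 genes were tested and all 10 were higher, with a median of 2.18 and 8 at an unadjusted p under 0.05. CD3E, a chain of the T cell receptor complex, was at 0.556 to 250.4 CPM (median 54.9) in the labelled and 0.212 to 84.9 CPM (median 0.435) in the poor, a log2 fold change of 4.05 ± 1.57 (SE, limma-voom adjusted p = 0.374). The sides overlapped, since dog 523 on the poor side was above 6 labelled dogs and the labelled dog 704 was at the level of the poor PP dogs. CD3G, CD2 and CD4, also T cell surface molecules, had log2 fold changes of 3.53, 3.15 and 2.32. Of the cytotoxic cell list 2 of 16 genes were tested, among them CCL5, a chemokine of activated T and NK cells, with 4.21.

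Antigen presentation and macrophage genes lay the same way. All 7 MHC class II genes tested were higher, with a median of 2.94 and all 7 at an unadjusted p under 0.05, from DLA-DQB1 (3.12), DLA-DQA1 (3.06) and DLA-DRA (2.94) to their transactivator CIITA (2.93). Of 19 macrophage genes 18 were tested and all were higher, with a median of 1.95 and 12 at an unadjusted p under 0.05. MSR1, the scavenger receptor that the study labelled as CD204, was at 3.00 to 316.4 CPM (median 87.8) in the labelled and 2.20 to 176.6 CPM (median 14.2) in the poor, a log2 fold change of 1.96 ± 0.92 (SE, adjusted p = 0.433). AIF1, labelled as Iba1, was at 2.07 to 82.5 CPM (median 49.0) against 1.80 to 66.7 CPM (median 3.17), a log2 fold change of 2.05 ± 0.88 (SE, adjusted p = 0.4). PTPRC, the pan-leukocyte antigen CD45, was at 14.3 to 485.3 CPM (median 215.3) against 5.83 to 229.2 CPM (median 24.4), a log2 fold change of 2.19 ± 0.78 (SE, adjusted p = 0.364). The study labelled CD45RA, a form of CD45, whereas the counts of PTPRC cover the whole gene. For each of these 3 genes both labelled PP dogs lay within the range of the poor PP dogs. The poor FP dogs lay within the range of the labelled FP dogs for MSR1 and PTPRC, and 1 of them was below it for AIF1. FOXP3, the factor of regulatory T cells, was at 0.253 to 13.9 CPM in the labelled, highest in dog 311, and 0 to 2.42 CPM in the poor. The scavenger receptor CD163 (2.45), lysozyme (LYZ, 2.25) and the costimulatory CD86 (2.20) had the largest log2 fold changes of the macrophage list.

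**Figure D3:**
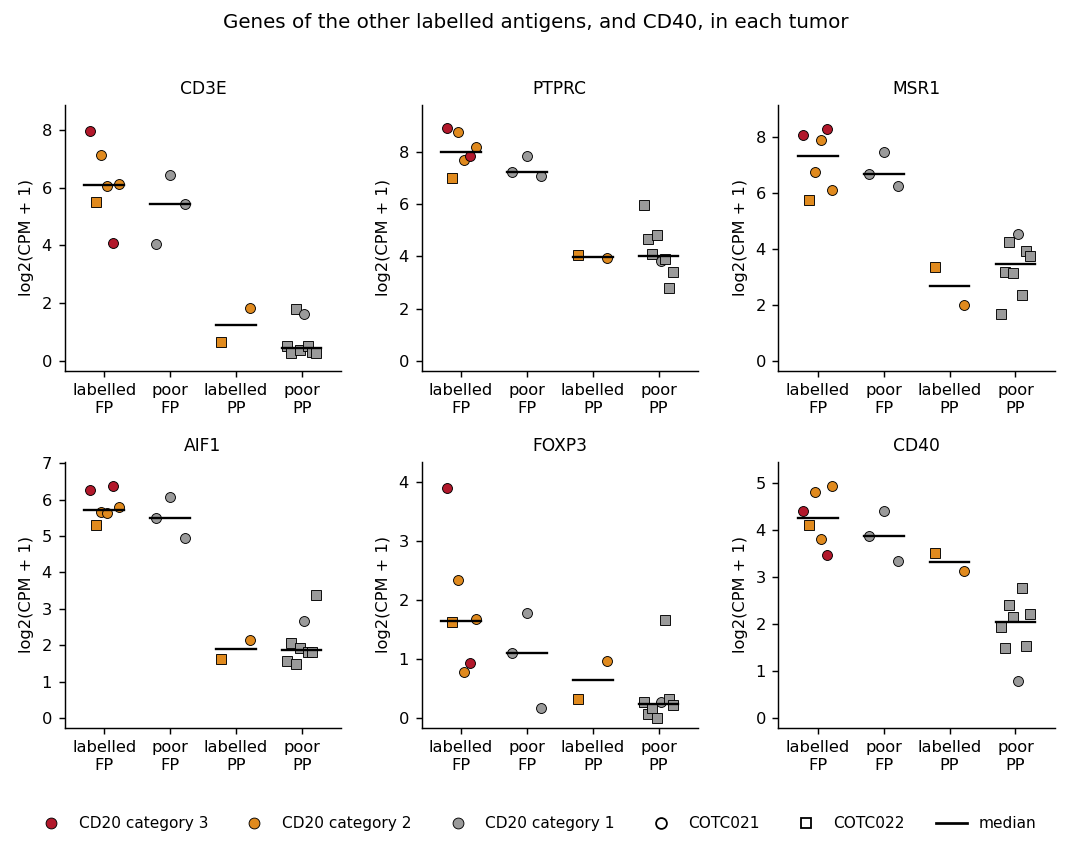
Levels of CD3E, PTPRC, MSR1, AIF1, FOXP3 and CD40 by cluster and CD20 side, as log2(CPM + 1) on the vertical axis. Each point is 1 dog (red for category 3, orange for 2, grey for 1, circles for COTC021, squares for COTC022) and each bar a median, and in CD3E, PTPRC, MSR1 and AIF1 the step between FP and PP exceeds that between the sides, and in CD40 both labelled PP dogs (10.4 and 7.72 CPM) lie above all poor PP dogs (at most 5.77 CPM).

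B cell lists themselves were thinly covered by this test. Of 20 B cell genes 5 were tested, with 3 higher, 2 lower and a median of 0.11, and MS4A1, CD79A, CD79B and PAX5 were not among them because of low counts. CD72, a B cell co-receptor, had a log2 fold change of 2.87 ± 1.03 (SE, limma-voom adjusted p = 0.367) and BLNK, an adaptor of the B cell receptor, 1.77, while EBF1, a B cell factor that stromal and fat cells also express, had -0.64 and BANK1, a B cell scaffold, -0.42. Of 14 plasma cell genes 7 were tested, with 6 higher, 1 lower and a median of 1.72. Besides JCHAIN these held SLAMF7 (2.42), CD38 (2.18) and PRDM1 (2.05), the last a factor that drives plasma cell formation. The B cell receptor signalling list had 16 genes tested, all higher, with a median of 1.72 and 12 at an unadjusted p under 0.05, among them PRKCB (2.53), PIK3CD (2.08) and RAC2 (1.86), which T cells or myeloid cells also use. Of the lymphoid aggregate list 9 of 19 were tested, 8 higher and 1 lower with a median of 1.34, among them LAMP3 of mature dendritic cells (2.97), TNFSF13 (2.68), a ligand of plasma cell receptors, and CD40. CD40 was at 7.72 to 29.3 CPM (median 14.6) in the labelled and 0.733 to 20.0 CPM (median 3.66) in the poor, a log2 fold change of 1.97 ± 0.44 (SE, adjusted p = 0.358). All 8 labelled dogs were above the poor median of CD40 and 3 were above every poor dog.

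Of the other lists, those of interferon response, osteoclasts and endothelium lay to the labelled side, and those of bone and cartilage to the poor side. All 17 interferon-stimulated genes tested were higher, with a median of 1.57, from GBP1 (3.29), IRF7 (2.85), OASL (2.77) and MX2 (2.51) downward. Dendritic cell genes were split 5 to 2 with a median of 0.28 and neutrophil genes 4 to 1 with 0.24. Of the osteoblast genes 9 of 11 were lower, with a median of -1.20 and 3 at an unadjusted p under 0.05, led by osteocalcin (BGLAP, -2.61) and the bone transcription factor SP7 (-2.02). All 10 cartilage genes were lower, with a median of -0.63, led by collagen II (COL2A1, -2.32) and SOX6 (-1.77). All 9 osteoclast genes were higher (median 0.85; DCSTAMP, a fusion protein of osteoclasts, 1.37), as were all 9 endothelial genes (median 0.60; VWF, 1.25). The medians of the muscle and proliferation lists were -0.18 and 0.06.

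Several of these differences were smaller once the trial was taken into account, but trial and GS-1 cluster largely coincided. Among the poor, all 3 FP dogs were of COTC021 and 7 of the 8 PP dogs of COTC022. Dog 522 was the only FP dog of COTC022 with a CD20 category. The part of the trial in these values therefore cannot be told apart from that of the cluster. With trial as a covariate the log2 fold change was 1.5 for CD3E, 1.22 for PTPRC, 0.70 for AIF1, 0.62 for MSR1 and 1.56 for DLA-DQB1, and the genes at an unadjusted p under 0.05 numbered 741, with 0 called by limma-voom. Within COTC021 alone, CD3E was at 1.24 and MSR1 at 0.31, with 0 genes called and 519 at an unadjusted p under 0.05. Within COTC022 alone, MSR1 was at 1.44, with 0 called and 514.

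With the GS-1 cluster as a covariate, most immune lists still lay to the labelled side, and the medians of the T cell, MHC class II, macrophage and B cell receptor signalling lists were smaller. The test again called 0 of 12772 genes (0.0%) with limma-voom, with 434 (3.4%) at an unadjusted p under 0.05 and a smallest adjusted p of 0.999, and edgeR and DESeq2 called 0 as well, with 566 and 707 at an unadjusted p under 0.05. The log2 fold change of CD3E was 0.95 ± 0.63 (SE), of PTPRC 0.44, of AIF1 0.28, of MSR1 0.19 and of JCHAIN 0.20 ± 1.08 (SE), each with an adjusted p of 0.999. All 10 T cell genes were still higher, with a median of 0.68 (all genes, 0.01, with 50.9% higher), as were all 7 MHC class II genes (0.46) and both cytotoxic genes. Macrophage genes were split 15 to 3 (0.26), B cell receptor signalling genes 15 to 1 (0.48), interferon-stimulated genes 14 to 3 (0.49), plasma cell genes 6 to 1 (0.31), lymphoid aggregate genes 6 to 3 (0.10), dendritic cell genes 5 to 2 (0.38) and B cell genes 2 to 3 (-0.20). The osteoblast list had 9 of 11 genes lower (-0.41), the neutrophil list 4 of 5 (-0.99) and the muscle list 4 of 5 (-1.15). Within COTC022 with the cluster as covariate PTPRC was at -0.09 and AIF1 at -0.51, the opposite sign to that in all dogs. There the covariate takes up dog 522, the only FP dog of that trial with a CD20 category. These values therefore set dog 704 alone against the 7 poor PP dogs of that trial.

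Genes with the smallest p in the cluster-adjusted fit lay on both sides. BEND7, a BEN domain protein, was at 2.99 to 8.47 CPM (median 6.47) in the labelled and 0.914 to 4.07 CPM (median 2.50) in the poor, a log2 fold change of 1.47 ± 0.39 (SE, limma-voom adjusted p = 0.999). SUSD1 had 1.62, the actin nucleator DIAPH1 0.72, the p53 target AEN 0.94, the ganglioside synthase ST8SIA1 2.64 and SCAMP5, of secretory vesicles, 1.63. Lower in the labelled were BRF1, a subunit of the RNA polymerase III machinery (-1.04), SCFD2 (-1.03) and the neutrophil and monocyte protein S100A12 (-2.13). Before adjustment for the cluster, DIAPH1 had already been among the genes with the smallest p, at 104.5 to 242.6 CPM (median 130.7) in the labelled and 38.1 to 121.9 CPM (median 73.6) in the poor, with 5 labelled dogs above every poor dog.

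**Figure D4:**
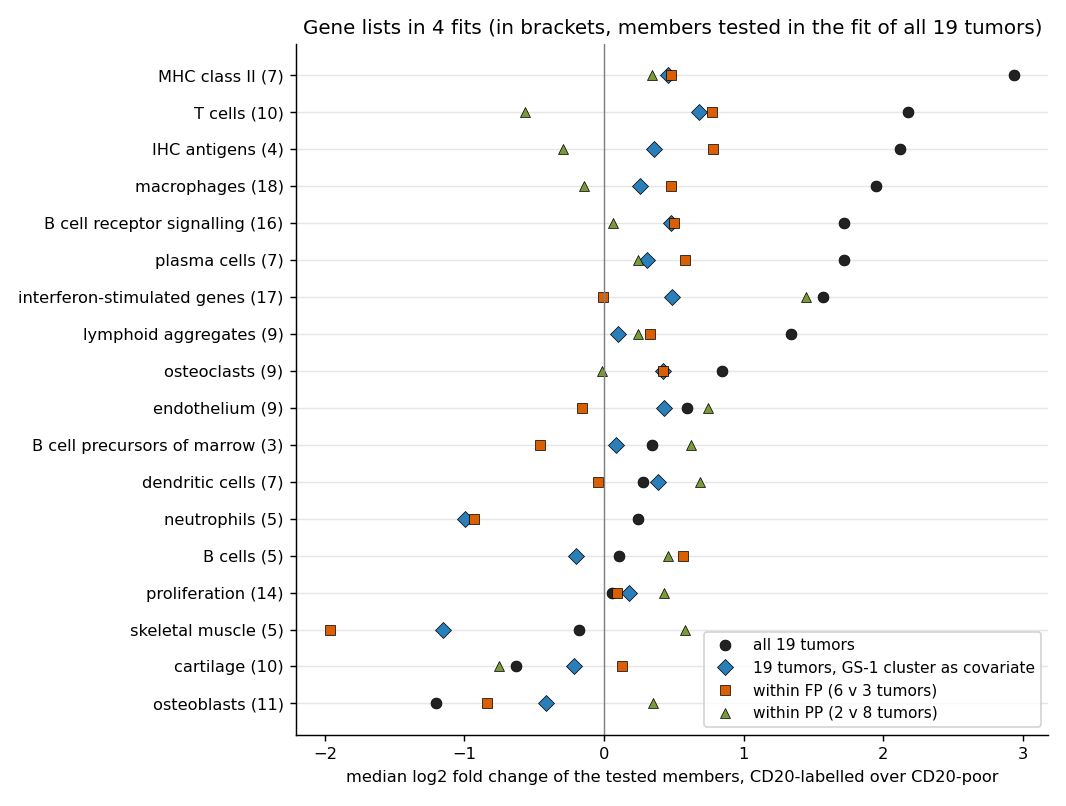
Median log2 fold change (labelled over poor) of the tested genes of 18 lists (vertical axis), in the fit without covariate, with GS-1 cluster as covariate, within FP and within PP. T cell genes have a median of 2.18 without covariate, 0.68 with the cluster as covariate, 0.78 within FP and -0.56 within PP.

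Within the 9 FP dogs alone, 6 labelled and 3 poor, 0 of 12638 genes were called by limma-voom (0.0%; smallest adjusted p 0.902), with 671 (5.31%) at an unadjusted p under 0.05, 281 (2.22%) higher and 390 (3.09%) lower in the labelled. edgeR called 0 (863 at an unadjusted p under 0.05) and DESeq2 28, of which 13 were higher and 15 lower (1084). All poor dogs were above all labelled dogs in 209 genes (1.65%), and all labelled above all poor in 77 (0.609%). The direction of the immune lists was kept in part. All 18 T cell genes tested were higher, with a median of 0.78 (all genes, 0.00, with 50.2% higher), as were all 9 MHC class II genes (0.48) and all 8 plasma cell genes (0.58). On the summed MHC class II and plasma cell lists, only dogs 311 and 625 were above all poor FP dogs. The other labelled FP dogs had plasma cell sums of 562.1 to 1029 CPM, against 614.1 to 1593 CPM in the poor. Cytotoxic genes were split 10 to 1 (1.44), macrophage genes 16 to 3 (0.48), B cell receptor signalling genes 15 to 2 (0.50) and B cell genes 7 to 3 (0.57), while interferon-stimulated genes were split 9 to 9 (-0.01). The summed B cell list lay the other way in most dogs, with a median of 103.8 CPM in the labelled and 201.6 CPM in the poor. Apart from dogs 311 and 625, the labelled FP dogs (74.2 to 116.8 CPM) were below all 3 poor FP dogs (159.2 to 252.4 CPM). The sum includes EBF1, which stromal and fat cells also express and which had a log2 fold change of -1.80 within FP. It therefore does not stand for B cell RNA alone, and the share of EBF1 in it was not separated. The IHC antigen genes tested had log2 fold changes of 0.92 (CD3E), 0.78 (PTPRC), 0.45 (MSR1), 0.42 (AIF1) and 0.82 (IRF4). PTPRC was at 125.7 to 485.3 CPM (median 256.0) in the labelled FP dogs and at 150.3, 229.2 and 133.7 CPM in dogs 207, 523 and 2321, so 3 labelled dogs were above all poor dogs and the rest overlapped.

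For CD79A, JCHAIN and IRF4 the direction within FP rested on dogs 311 and 625. CD79A had a log2 fold change of 0.75 ± 1.33 (SE, limma-voom adjusted p = 0.961) and JCHAIN 0.11 ± 1.84 (SE), and without these 2 dogs the values were -0.53 and -1.93. IRF4 went from 0.82 to -0.43. With trial as a covariate, or within COTC021, JCHAIN was at -0.02. Within FP these fits compare the same dogs, since the trial covariate takes up dog 522, the only one of COTC022. FCER2, the low-affinity IgE receptor of B cells, had 2.11, CD72 1.37 and BANK1 -1.24, and EBF1 had -1.80, and these kept their sign without the 2 dogs (1.56, 1.11, -1.90 and -1.69). The granule proteins of killer cells, PRF1 and GZMB, had log2 fold changes of 2.03 and 1.90, the T cell co-receptor chain CD8A 1.18, and the plasma cell factor PRDM1 1.18.

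Among the genes with the smallest p within FP, several did not overlap between the sides, which their choice by p makes likely. Over all genes, 1.65% had every poor dog above every labelled dog and 0.609% the reverse. With 84 arrangements of 6 and 3 dogs, a gene without any difference would fail to overlap with a probability of 0.0238. BGLAP (chromosome 7, 41613117 to 41614007), which encodes osteocalcin of mature osteoblasts, was at 0.228 to 7.53 CPM (median 3.78) in the 6 labelled dogs and at 117.1, 30.0 and 38.9 CPM in the 3 poor dogs. The sides did not overlap, and the log2 fold change was -4.60 ± 0.84 (SE, limma-voom adjusted p = 0.902; DESeq2, -4.00, adjusted p = 0.00564). The same lack of overlap was seen for CHAD, a cartilage matrix protein, at 1.35 to 17.8 CPM in the labelled and 36.1 to 89.9 CPM in the poor (log2 fold change -3.07). It was also seen for the growth factor PDGFC (28.3 to 45.5 against 65.5 to 154.3 CPM, -1.22), the limb mesenchyme factor PRRX1 (116.3 to 223.1 against 314.0 to 487.9 CPM, -1.24) and the fibroblast growth factor FGF7 (3.99 to 32.9 against 51.4 to 121.7 CPM, -2.44). The scaffold protein NEDD9 had -1.25 and the microtubule protein MAP1A -1.57. Of the osteoblast list 8 of 10 genes were lower (median -0.84), whereas the cartilage list was split 4 to 4 (0.13). The summed osteoblast list overlapped between the sides, at 23070 to 56120 CPM in the labelled FP dogs and 13910 to 50580 CPM in the poor. Its lowest value was that of dog 207.

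On the other side, SCN9A (chromosome 36, 11588422 to 11748250), a voltage-gated sodium channel, was at 6.94 to 27.1 CPM (median 14.1) in the labelled FP dogs and at 2.27, 1.75 and 1.15 CPM in dogs 207, 523 and 2321, a limma-voom log2 fold change of 3.10. DESeq2 gave 3.23 (adjusted p = 1.23e-05), whereas neither limma-voom nor edgeR called this gene. The kinase STK39 (32.6 to 41.9 against 14.9 to 19.8 CPM, 1.11) and the trafficking protein AGFG1 (76.2 to 118.9 against 48.9 to 56.7 CPM, 0.95) were also apart. The 3 poor FP dogs were all of COTC021, as were 5 of the 6 labelled FP dogs, and within COTC021 the log2 fold changes of SCN9A and CHAD were 3.11 and -3.34. Without dogs 311 and 625 these were 3.26 and -3.53, and BGLAP was at -4.29.

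**Figure D5:**
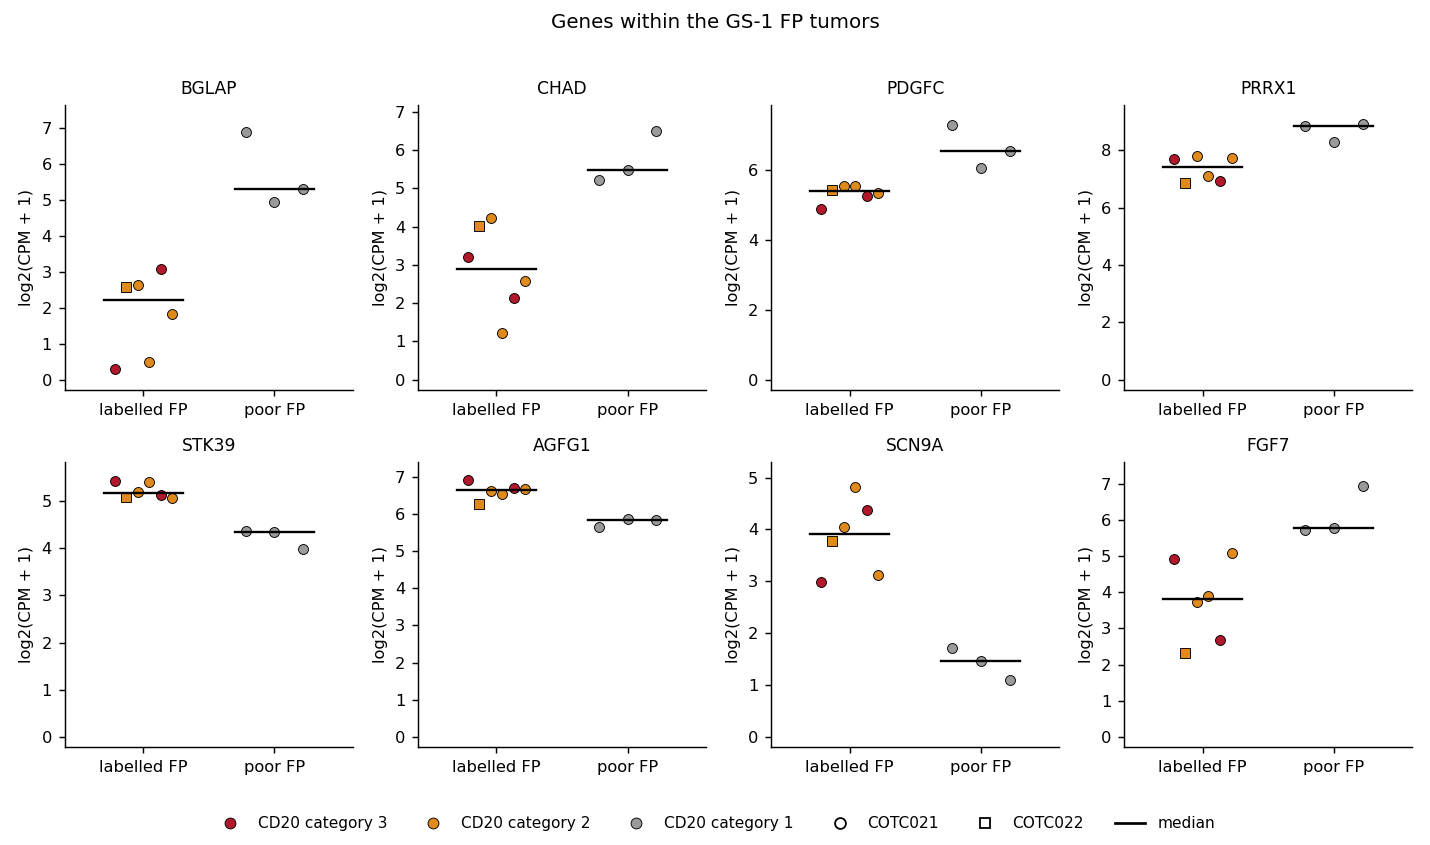
Levels of BGLAP, CHAD, PDGFC, PRRX1, STK39, AGFG1, SCN9A and FGF7 in the 9 FP dogs by CD20 side, as log2(CPM + 1) on the vertical axis. These genes were picked from those with the smallest p within FP. Each point is 1 dog (red for category 3, orange for 2, grey for 1, circles for COTC021, squares for COTC022) and each bar a median, and the sides do not overlap, with BGLAP at most 7.53 CPM in the labelled and at least 30.0 CPM in the poor.

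Most tested markers of skeletal muscle and of granulocytes were lower in the labelled FP dogs, with 0 called by limma-voom. All 6 skeletal muscle genes tested were lower, with a median of -1.96, led by CKM (-2.61) and MYH7 (-2.28), muscle creatine kinase and the slow myosin heavy chain. MYH7 was at 0.910 to 10.1 CPM in the labelled and 11.5, 47.8 and 16.1 CPM in the poor, and the summed muscle list ranged from 2.05 to 243.6 CPM in the labelled and 33.5 to 414.7 CPM in the poor. Of 6 neutrophil genes 4 were lower (median -0.93), with S100A12 at -2.15 and myeloperoxidase (MPO) at -1.61, and the summed list ranged from 22.9 to 163.1 CPM against 86.1 to 226.8 CPM. The summed erythroid list was 18.8 CPM in dog 207 and 11.9 CPM in dog 2321, ranks 6 and 10 of 186, and 0.873 CPM in dog 523, against 0.317 to 6.79 CPM in the labelled FP dogs. The list of marrow B cell precursors was at 981.8 CPM in dog 2321, rank 1 of 186, at 379.5 and 118.7 CPM in dogs 207 and 523, and at 65.6 to 485.9 CPM in the labelled. Of this list only MME, CD34 and LEF1 had counts high enough to be tested within FP, with log2 fold changes of 0.57, -0.78 and -0.46. Whether its sum came from marrow was not tested. Nor was the part of muscle, granulocytes or marrow in the other differences. Osteoclast genes were split 8 to 1 (median 0.43), endothelial genes 4 to 5 (-0.16) and proliferation genes 8 to 6 (0.09).

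Within the 10 PP dogs, only dogs 704 and 1411 were labelled, and 0 of 12050 genes were called by limma-voom (0.0%; 305, or 2.53%, at an unadjusted p under 0.05). edgeR called 0 (353 at an unadjusted p under 0.05) and DESeq2 2, HAND2 (-4.50, adjusted p = 0.0105), a transcription factor of mesenchyme, and PIR (2.20, adjusted p = 0.0232), a nuclear iron protein (514). Both labelled dogs were above all 8 poor dogs in 130 genes (1.08%). Macrophage and T cell genes did not lie to the labelled side here. Of the macrophage list 6 genes were higher and 11 lower (median -0.14; all genes, 0.01, with 51.1% higher), and of the T cell list 1 and 2 (-0.56). The summed T cell list was 16.2 and 26.6 CPM in the labelled and 11.7 to 45.3 CPM in the poor. Of the osteoblast list 9 of 11 genes were higher (median 0.35), whereas within FP 8 of 10 were lower. The summed osteoblast list of the labelled PP dogs, 46940 and 69870 CPM, lay inside the 5939 to 110300 CPM of the poor. Interferon-stimulated genes were all 14 higher (1.45), as were the 9 endothelial genes (0.75). The summed interferon list was 805.6 CPM in dog 704 and 341.8 CPM in dog 1411, inside the 146.7 to 1148 CPM of the poor PP dogs. The summed endothelial list was 1921 CPM in dog 704, above every poor PP dog, and 108.5 CPM in dog 1411, below every one of them (147.1 to 783.1 CPM), so that its higher level was that of 1 dog. CD40 and PIK3CD lay above every poor PP dog, with PIK3CD at 17.2 and 23.2 CPM against at most 12.1 CPM. SUSD1 was at 20.9 and 16.0 CPM against at most 8.82 CPM.

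Whether the contrast differed between FP and PP was tested with an interaction term. It called 0 of 12772 genes (0.0%) with limma-voom, with 443 (3.47%) at an unadjusted p under 0.05, and edgeR called 0 with 545. For BGLAP the log2 fold change in FP minus that in PP was -5.82 ± 2.14 (SE), for CHAD -4.62 ± 1.28, for SCN9A 2.16 ± 2.56 and for PTPRC 0.95 ± 0.80, all with an adjusted p of 0.999. In the labelled PP dogs BGLAP was at 56.4 CPM (dog 704) and 111.0 CPM (dog 1411), inside the 4.38 to 359.8 CPM of the poor PP dogs.

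The 2 category 3 tumors, of dogs 311 and 1405, were also set against the 11 poor tumors. limma-voom called 5 genes, all higher, of 12524 tested, namely the integrin chain ITGAM of myeloid cells (4.46), the lipid transporter ABCA6 (4.38) and the cytokine receptor CRLF2 (4.09), each with an adjusted p of 0.0216, and the channel AQP9 (4.74) and carboxypeptidase M (3.32), each with 0.0336. Both dogs were FP against 3 FP of 11 on the other side. With the GS-1 cluster as a covariate, added after seeing the data, limma-voom called 0 genes, with 187 at an unadjusted p under 0.05, and the 5 genes had log2 fold changes of 2.58 (ITGAM), 2.75 (ABCA6), 2.64 (CRLF2), 2.49 (AQP9) and 2.43 (carboxypeptidase M). Category 2 against category 1 gave 0 calls with limma-voom and 788 genes at an unadjusted p under 0.05.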

How the data were processed

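CD20 categories and GS-1 clusters came from the study's supplementary data and were joined by dog number, because the sample labels do not carry them. The trial is in the labels. Per the labels, stranded mRNA libraries were sequenced in pairs, aligned with STAR 2.7.0f and quantified with RSEM 1.3.1. The authors deposited expected counts, not normalized, for 37952 genes of GSD_1.0, and 3.07% of values were not whole and were rounded. Of 198 columns, 12 were not used here. Depth is given with the results.

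Low counts were removed by edgeR's filter with a minimum count of 10 and no groups (proportion 0.5 beyond 5 libraries). After TMM scaling, R 4.3.3 ran voom of limma 3.58.1, with Benjamini-Hochberg adjustment over all genes tested and calls at 0.05. edgeR 4.0.16 quasi-likelihood and DESeq2 1.42.0 were alternatives. The fits without covariate, over all dogs and within FP, were tested on simulated counts with the same dispersion for every gene. The other fits, and genes that vary more between dogs, were not covered. CPM are scaled to the library total. MS4A1, which the filter did not keep, was tested by exact permutation on log2(CPM + 1). Python 3.11.15 with scipy 1.17.1 was used. Positions are those of RefSeq.

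Named genes were the IHC antigens, up to 4 genes of largest change in each list, the 10 genes of smallest p with the cluster as covariate and within FP, and fixed B lineage genes. CXCL13, CLBA1, HAND2, PIR, the genes of category 3, and some values of named genes in other fits lie outside this rule and were chosen after their values were seen. The members and lists were chosen with earlier results of these data known. P-values measure the spread between dogs, each sampled once. A few genes that the rule names are not reported.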

Additional observations from a re-analysis of the deposited data

Results flagged for a closer look

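In 51 groups of dogs and genes, the highest or lowest dog was set against its nearest neighbor by Dixon's criterion, which marked 14 groups. For normally distributed values chance alone marks about 1 group in 20. The criterion was used here on untransformed CPM and library totals, for which that rate need not hold. The groups also share dogs, as the labelled FP dogs are part of the labelled. On the labelled side, PAX5 of dog 625 stood out at 25.5 CPM, with dog 311 next at 8.19 CPM, both among all 8 labelled dogs and among the 6 of FP. FOXP3 of dog 311 stood out at 13.9 CPM in the same groups, with 4.05 CPM next. The library of dog 704 was the deepest of the labelled, with 19767976 counts against 12630564 for the next.

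Among the 8 poor PP dogs, single dogs stood out for B lineage and other immune genes. Dog 1410 had 26.8 CPM of CD79B (next 0.871), 84.4 CPM of JCHAIN (next 35.2), 1.02 CPM of IRF4 (next 0.314) and 9.47 CPM of AIF1 (next 5.34). Dog 608 had 8.78 CPM of PAX5 (next 0.628) without MS4A1. Dog 1012 had 2.61 CPM of POU2AF1 (next 0.772) and 2.18 CPM of FOXP3 (next 0.246). CD79A was highest in dog 1009 at 1.26 CPM (next 0.523), and PTPRC in dog 102 at 61.8 CPM (next 26.9). The causes were not tested.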

How the results depend on the processing

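limma-voom called 0 genes with RLE scaling, without the filter, with a looser filter, with trial or with trial and cluster as covariates, with quality weights, within each trial and without the 3 deepest libraries, as in the fit reported. The counts that differed were those of DESeq2, 55 over all dogs, 28 within FP and 2 within PP, and of category 3 against category 1, 5. Leaving out 1 dog at a time gave 0 to 0 calls over all dogs, with the cluster as covariate and within FP (986 to 2017, 304 to 635 and 483 to 1077 genes at an unadjusted p under 0.05), and 0 to 1 within PP, where without dog 719 NUDT19 was called (limma-voom adjusted p = 0.00658). NUDT19 had no count in either labelled PP dog. Without dogs 311 and 625, added after seeing the data, limma-voom called 0 genes, with 721 over all dogs, 362 with the cluster and 616 within FP at an unadjusted p under 0.05.

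The MS4A1 difference was 0.46 to 0.98 with 1 dog left out (exact permutation p = 0.0298 to 0.279) and 0.38 to 1.10 within FP (exact p = 0.429 to 0.929). It was 0.92 without dog 523 and -0.19 within FP without dogs 311 and 625. The log2 fold changes of named genes gave 490 values under alternatives, of which 472 kept direction and side of the threshold, 9 passed it (DESeq2) and 9 changed sign. Among the last were BANK1 (0.02) within COTC022, and PTPRC (-0.09) and AIF1 (-0.51) within COTC022 with the cluster as covariate. The latter fit compares dog 704 alone with the 7 poor PP dogs of that trial. JCHAIN changed sign with the cluster as covariate and without dogs 311 and 625 (-1.05). Within FP without them, IRF4 (-0.43), CD79A (-0.53) and JCHAIN (-1.93) did so. JCHAIN (-0.02) also did so within FP with trial as covariate and within COTC021, which compare the same dogs. The cause of these changes was not tested. No paired analysis was possible because each dog was sampled once and no numbers are shared between the groups.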
